A study of Mus musculus with 4 samples.

Results

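The genes described here are 8 mouse genes whose human counterparts are mutated in, or whose loss in mice produces, cystic kidneys: Pkd1, Pkd2, Pkhd1, Bicc1, Nphp4, Tmem67, Invs and Glis3. They were taken by symbol from the 22761 gene names that all 4 tables share, and each of the 8 was found as a single row in every table. The study asked how loss of Hnf4a, which encodes a nuclear receptor active in proximal tubules, alters the kidney transcriptome, by RNA sequencing of whole kidneys from embryos of mixed strain at E18.5. The 2 control libraries have the genotype Hnf4a c/+ ; Six2GFPcre, with 1 conditional allele. The 2 mutant libraries have the genotype Hnf4a c/c ; Six2GFPcre, in which both alleles are conditional. All 4 libraries carry Six2GFPcre, a Cre recombinase of nephron progenitors, so nephrons of the control kidneys may also lack 1 of their Hnf4a copies, while the ureteric bud lineage, which forms the collecting ducts, would keep its alleles. The labels do not name the animals. The sex-linked transcripts given below differed between the 2 libraries of each group, so these libraries were not made from the same animal. The spread between the libraries of a group may still be partly technical. The values are FPKM, fragments scaled for transcript length and for the mapped total of the library, which puts genes on a common scale. Locus bounds that differ between libraries and loci shared with other genes, both given below, limit comparisons between genes. The tables give no read totals and the depth of each library is unknown.

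The products of most of these genes act at the primary cilium, an antenna-like projection of the tubule cell into the lumen. Polycystin-1 and polycystin-2, encoded by Pkd1 and Pkd2, form a receptor and cation channel complex in the ciliary membrane, and fibrocystin, encoded by Pkhd1, is a membrane protein of the cilium and its base. Nphp4 and Tmem67 belong to the gate at the ciliary base, the transition zone, and inversin, encoded by Invs, marks the segment above it. Bicc1 is an RNA-binding protein that has been linked to Pkd2 mRNA, and Glis3 is a zinc finger transcription factor that is also found at the cilium.

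None of the 8 genes differed between mutant and control kidneys past the threshold. With limma on log2(FPKM + 1) and Benjamini-Hochberg adjustment over 13287 tested genes, 0 of 8 passed an adjusted p under 0.05, and 0 of 8 had an unadjusted p under 0.05. The background in the same fit was 21 genes, or 0.158%, past the adjusted threshold (0.0452% higher and 0.113% lower in mutant kidneys) and 962 genes, or 7.24%, past the unadjusted threshold. Set against so low a background, 0 of 8 does not set the 8 genes apart from the rest. The mutant mean lay between 96.7% (Invs) and 119.8% (Tmem67) of the control mean. In whole tissue, fewer cells of a type and less RNA per cell cannot be told apart. The median log2 change was 0.05 over the 8 genes and 0.02 over all tested genes, and the median of the absolute changes was 0.05 against 0.12. The median over the 8 genes became 0.19 and -0.05 on leaving out control replicates 1 and 2 in turn and 0.015 and 0.099 on leaving out mutant replicates 1 and 2, and it was 0.03 and 0.02 with median of ratios scaling and quantile normalization. The control and mutant values did not overlap for 2 of the 8 genes, Bicc1 and Tmem67, or 25% against 39.8% of all tested genes. Both were higher in the mutant libraries, against a background of 22.7% of tested genes without overlap in that direction, so the 25% is near the background.

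**Figure D1:**
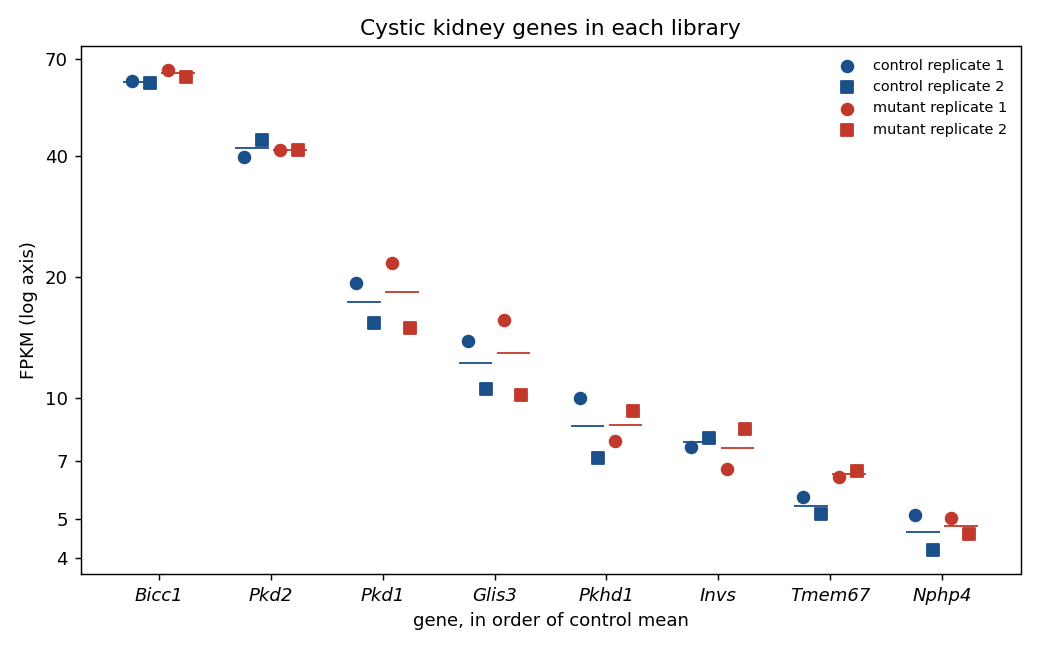
FPKM (log axis) of the 8 genes in each of the 4 libraries, ordered by control mean; circles are replicate 1, squares replicate 2, and horizontal lines the group means. Bicc1 is highest, at 61.1 to 65.7 FPKM, and Nphp4 lowest, at 4.19 to 5.13 FPKM, and the control and mutant points overlap for every gene but Bicc1 and Tmem67.

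The levels spanned more than an order of magnitude between genes and kept nearly the same order in every library. Averaged over the 4 libraries, Bicc1 was at 62.8 FPKM, Pkd2 at 41.7, Pkd1 at 17.9 and Glis3 at 12.6. Pkhd1 followed at 8.56 FPKM, Invs at 7.65, Tmem67 at 5.95 and Nphp4 at 4.74. Among neighbours in this order, the ranges of Pkd1 and Glis3 and those of Pkhd1 and Invs overlapped. Pkd1 was nevertheless above Glis3 in 4 of 4 libraries, and Pkhd1 was above Invs in 3 of 4. The ranges of the other neighbours did not overlap. The sum of the 8 genes was 163 and 155 FPKM in the control libraries and 170 and 159 FPKM in the mutant libraries.

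Pkd2 (mm9 chromosome 5, 104888476 to 104934838), the channel subunit of the polycystin complex, was nearly level between the groups. Controls had 39.9 and 43.9 FPKM and mutants 41.4 and 41.5 FPKM, so the mutant values lay between the control values. The means were 41.9 ± 2.85 FPKM in control and 41.5 ± 0.0707 FPKM in mutant kidneys (SD, n = 2 per group here and below). The log2 change was -0.01 (SE 0.08; 95% interval -0.24 to 0.21), with an adjusted p of 0.975 by limma. The interval corresponds to a ratio of 0.849 to 1.16 on the FPKM + 1 scale. With 2 libraries against 2, no exact permutation test of a single gene can go below p = 0.333. The p-values and the intervals given here both come from the limma fit and rest on the same SE.

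Pkd1 (mm9 chromosome 17, 24686895 to 24733459), the receptor-like partner of Pkd2, was less even between libraries of the same genotype. It was at 19.4 and 15.4 FPKM in control replicates 1 and 2 and at 21.7 and 15.0 FPKM in mutant replicates 1 and 2. The high values were thus in replicate 1 of each group and the low ones in replicate 2, and the groups overlapped. The log2 change was 0.06 (SE 0.22; 95% interval -0.54 to 0.66) with an adjusted p of 0.95 by limma, and its sign turned when control replicate 2 was left out (-0.10) or mutant replicate 1 was left out (-0.20). Pkd2 was higher than Pkd1 in every library, by 2.06 and 2.86 times in the control and 1.91 and 2.78 times in the mutant libraries.

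Pkd1 shares the end of its locus with Tsc2, the tuberous sclerosis gene next to it. The loci of Pkd1 and Tsc2 overlapped by 699 bp at the Pkd1 end in all 4 libraries, and no source names a stranded count, so reads from this stretch cannot be assigned with certainty. Tsc2 stood at 23.3 and 20.2 FPKM in controls and at 12.1 and 20.3 FPKM in mutant replicates 1 and 2. Mutant replicate 1 thus had the highest Pkd1 value and the lowest Tsc2 value of the 4 libraries. Pkd1 made up 64.2% of the summed FPKM of both genes in that library, against 45.5% and 43.2% in the control libraries and 42.4% in mutant replicate 2. As FPKM are scaled for transcript length, these are not shares of reads. The sum itself was 42.7 and 35.6 FPKM in control and 33.9 and 35.3 FPKM in mutant libraries. The interval deposited with Pkd1 in mutant replicate 1 ran from 20.5 to 29892 FPKM, whereas in the other libraries its upper bound was between 15.9 and 20.5 FPKM. That of Tsc2 in mutant replicate 1 ran from 10.8 to 13.5 FPKM. An upper bound over 10 times the value was found in 72 of 13184 named rows at 1 FPKM or more in that table, or 0.546%. Among genes named below, Prkcsh in control replicate 2 (80.0 FPKM, upper bound 3855) and Tsc1 in mutant replicate 2 (12.1 FPKM, upper bound 225) also had such a bound. The part of the overlap with Tsc2 in the Pkd1 value was not tested. In control replicate 2 the Pkd1 locus began 955 bp further upstream than in the other libraries.

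**Figure D2:**
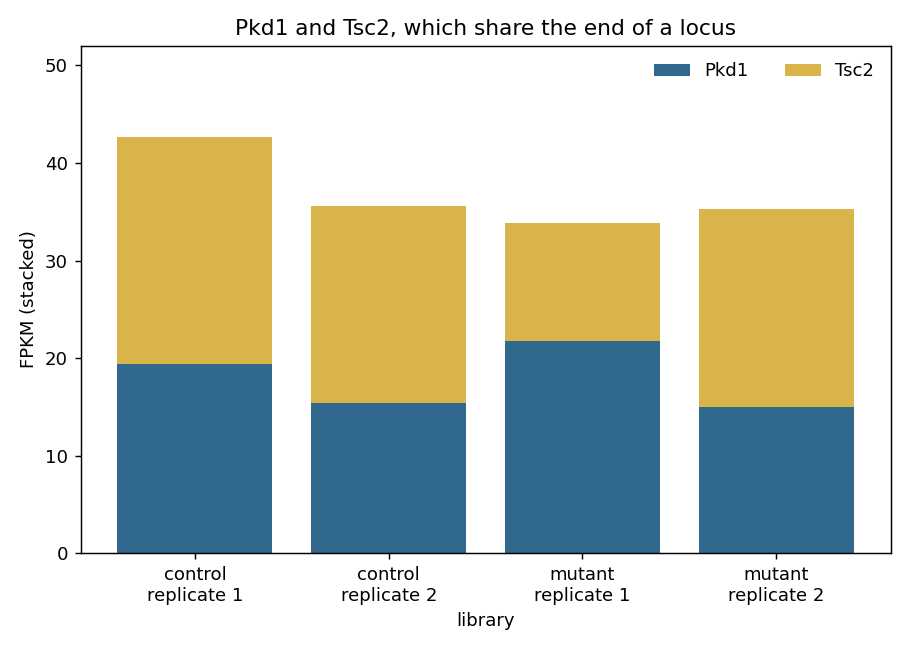
Stacked FPKM of Pkd1 (lower part of each bar) and Tsc2 (upper part) in each of the 4 libraries. The division differs in mutant replicate 1, where Pkd1 is at 21.7 and Tsc2 at 12.1 FPKM, while the other libraries have less Pkd1 than Tsc2.

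Pkhd1 (mm9 chromosome 1, 20047860 to 20608138) encodes fibrocystin, the protein altered in recessive polycystic kidney disease. Its level was 10.01 and 7.09 FPKM in controls, against 7.84 and 9.30 FPKM in mutants. The mutant values lay inside the control range. The means were 8.55 ± 2.07 and 8.57 ± 1.04 FPKM, and the log2 change was 0.02 (SE 0.21; 95% interval -0.54 to 0.57; adjusted p = 0.99 by limma). The sign of this change was not stable, since it was -0.0037 with median of ratios scaling and -0.0040 with quantile normalization. It was also negative without control replicate 2 (-0.21) and without mutant replicate 2 (-0.10). Within replicate 1 the mutant library was lower by 0.32 on the log2 scale, and within replicate 2 it was higher by 0.35. The interval corresponds to ratios from 0.688 to 1.48, so ratios within that range, in either direction, were not excluded by these libraries.

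Tmem67 (mm9 chromosome 4, 11966504 to 12015154), which encodes the transition zone protein meckelin, had the largest change of the 8 genes with all 4 libraries in the fit, still short of the threshold. Its level was 5.68 and 5.14 FPKM in controls, against 6.38 and 6.58 FPKM in mutants. Both mutant values were above both control values. The means were 5.41 ± 0.380 and 6.48 ± 0.141 FPKM, a log2 change of 0.22 (SE 0.14; 95% interval -0.15 to 0.60; unadjusted p = 0.18 and adjusted p = 0.76 by limma). Its change was larger in size than that of 72.5% of all tested genes. Leaving out any library in turn gave changes between 0.16 and 0.28, while Glis3 and Pkd1 had larger changes, 0.35 and 0.31, without mutant replicate 2, as did Pkhd1 in size, at -0.21, without control replicate 2. Of all tested genes, the 3 whose values over the 4 libraries lay nearest to those of Tmem67, by Euclidean distance on log2(FPKM + 1), were Tmem169 (distance 0.06), Tmem229b (0.11) and Ddit4l (0.11). Tmem169 was at 5.71 and 5.07 FPKM in control and 6.27 and 6.89 FPKM in mutant libraries.

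Nphp4 (mm9 chromosome 4, 151851822 to 151937293), which encodes nephrocystin-4 of the transition zone, was the lowest of the 8 genes. Controls gave 5.13 and 4.19 FPKM and mutants 5.04 and 4.60 FPKM, with the mutant values inside the control range. The log2 change was 0.04 (SE 0.17; 95% interval -0.40 to 0.49; adjusted p = 0.95 by limma). It turned to -0.076 without control replicate 2 and to -0.01 without mutant replicate 1. The start of the assembled Nphp4 locus moved by up to 429 bp between libraries.

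Invs (mm9 chromosome 4, 48292632 to 48444869) gave 7.59 and 7.97 FPKM in controls, against 6.67 and 8.37 FPKM in mutants. Here the control values lay inside the mutant range. The means were 7.78 ± 0.271 and 7.52 ± 1.21 FPKM, with a log2 change of -0.05 (SE 0.16; 95% interval -0.48 to 0.38; adjusted p = 0.94 by limma). Without mutant replicate 1 the change was 0.095. The Invs locus overlapped that of Tex10 by 998 to 1042 bp, and Tex10 was at 17.1 and 17.5 FPKM in control and 19.3 and 19.1 FPKM in mutant libraries. Reads from the shared stretch cannot be assigned with certainty.

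Bicc1 (mm9 chromosome 10, 70385585 to 70622741), the RNA-binding protein, was the most abundant of the 8 genes and had the narrowest interval. Controls reached 61.4 and 61.1 FPKM and mutants 65.7 and 63.0 FPKM. Both mutant values were above both control values, and the gap was small. The means were 61.3 ± 0.258 and 64.3 ± 1.85 FPKM, with a log2 change of 0.07 (SE 0.07; 95% interval -0.11 to 0.25; unadjusted p = 0.36 and adjusted p = 0.80 by limma). The interval covers ratios from 0.926 to 1.19. Of all tested genes, 89.4% had a lower mean level than Bicc1.

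Glis3 (mm9 chromosome 19, 28333822 to 28754759), the transcription factor, had the widest interval. It was at 13.9 and 10.6 FPKM in control replicates 1 and 2 and at 15.7 and 10.2 FPKM in mutant replicates 1 and 2. As for Pkd1, replicate 1 was high and replicate 2 low in each group, and the groups overlapped. The means were 12.2 ± 2.35 and 12.9 ± 3.89 FPKM, with a log2 change of 0.06 (SE 0.25; 95% interval -0.62 to 0.74; adjusted p = 0.96 by limma). The sign turned without control replicate 2 (-0.12) and without mutant replicate 1 (-0.23). The overlapping transcript D930032P07Rik was listed at 0 in 3 libraries and at 0.106 FPKM in mutant replicate 2. Pkhd1 likewise overlapped a transcript, 4930486I03Rik, that was listed at 0 in all 4 libraries.

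**Figure D3:**
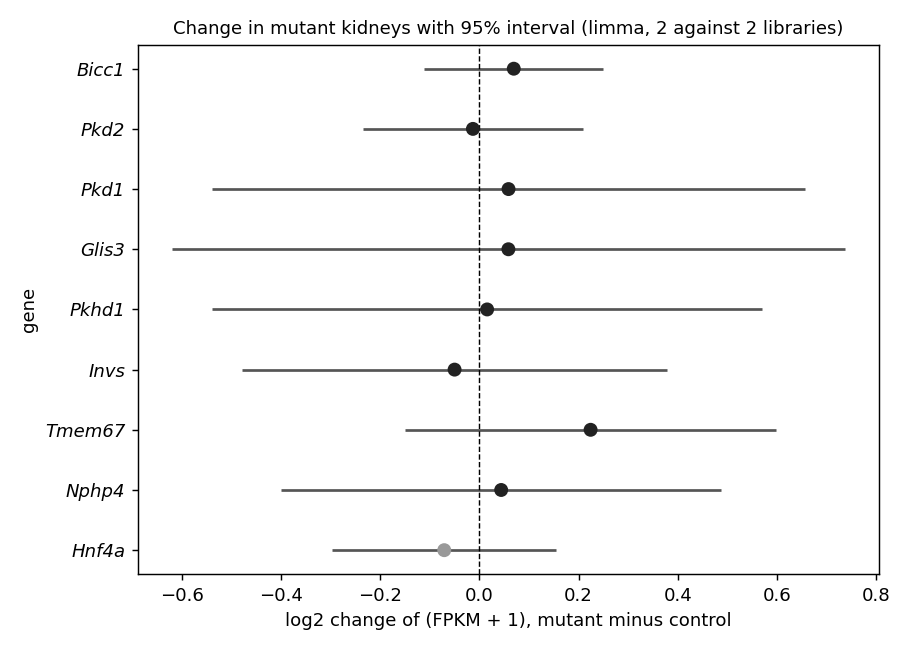
Log2 change of (FPKM + 1), mutant minus control, for the 8 genes and Hnf4a, with 95% intervals from limma; the dashed line marks no change. Every interval includes 0, that of Bicc1 is the narrowest (-0.11 to 0.25) and that of Glis3 the widest (-0.62 to 0.74).

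For Pkd1, Glis3, Pkhd1, Nphp4 and Invs the libraries of each group differed by more than the genotypes did on log2(FPKM + 1). For Pkd2 this held in the control group only, and for Bicc1 and Tmem67 in neither group. Replicate 1 exceeded replicate 2 by 1.26 times in control and 1.45 times in mutant libraries for Pkd1, and by 1.31 and 1.54 times for Glis3. Nphp4 and Bicc1 were also higher in replicate 1 of each group, by 1.23 and 1.10 times and by 1.01 and 1.04 times. Pkd2 and Invs were lower in replicate 1 of each group, at ratios of 0.908 and 0.998 and of 0.952 and 0.796. Pkhd1 and Tmem67 went opposite ways, Pkhd1 at 1.41 in control and 0.842 in mutant libraries and Tmem67 at 1.10 and 0.970. The replicate number also separated the sex-linked transcripts. The Y-linked gene Ddx3y was at 27.7 and 26.4 FPKM in replicate 1 of the control and mutant groups and at 0.0301 and 0.0265 in replicate 2, where Xist was at 81.0 and 74.0 FPKM. With 1 library per replicate number in a group, sex and any other difference between these libraries cannot be told apart.

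**Figure D4:**
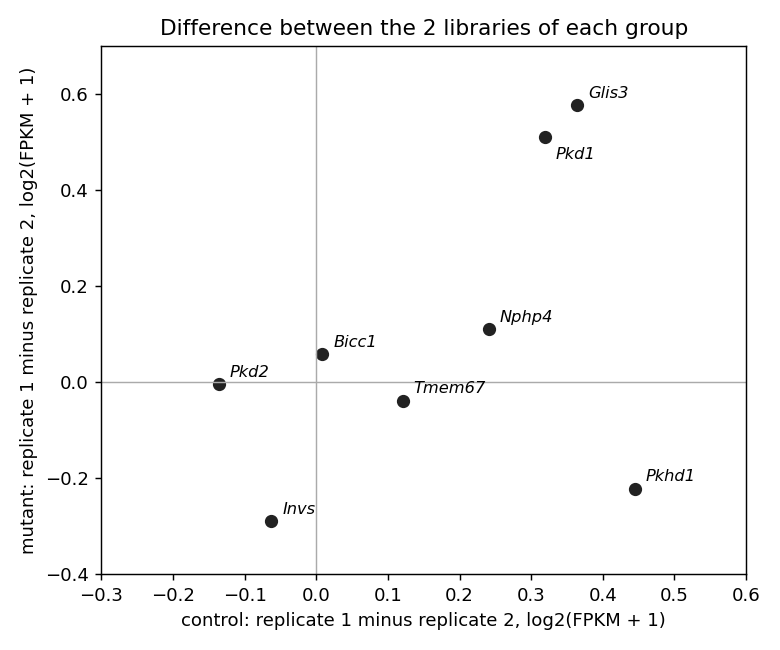
Difference between replicate 1 and replicate 2 on log2(FPKM + 1), in control (horizontal axis) and mutant (vertical axis) libraries, 1 point per gene. Glis3 (0.36 and 0.58) and Pkd1 (0.32 and 0.51) lie high on both axes, whereas Pkhd1 is positive in control (0.45) and negative in mutant libraries (-0.22).

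Promoter windows of 300 bases were found in the RefSeq table (GRCm38.p6, a build other than the mm9 of the expression tables) for 6 of the 8 genes, all but Bicc1 and Tmem67. The letters CAAAGTCCA, a form of the HNF4 site, were present on either strand in 0.475% of 32851 windows and in none of the windows of the 6 genes. The letters GTTGCC, part of the X-box bound by RFX factors of ciliary genes, were present on either strand in 12.5% of windows and, among the 6 genes, in 1 of 3 windows of Nphp4. These are matches of letters only.

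The other genes of these diseases and of the cilium were read from 11 lists with 82 different genes, of which 74 were tested. None of the 74 passed over all genes tested in limma, and 6 had an unadjusted p under 0.05 (Iqcb1, Mapkbp1, Mks1 and Ttc8 with positive and Anks6 and Pde4c with negative changes). Of all tested genes, 7.24% had an unadjusted p under 0.05 in the same fit, so 6 of 74 is near the background. The 74 had positive changes in 47 cases, against 55.3% of all tested genes, and a median log2 change of 0.07.

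Among 7 other genes of dominant and recessive polycystic kidney disease, 1 change was positive and 6 were negative, with a median of -0.04 (0.0016 and -0.076 on leaving out control replicates 1 and 2, -0.067 and -0.0079 on leaving out mutant replicates 1 and 2). Dzip1l, which acts at the transition zone, was at 13.9 and 14.2 FPKM in control and 15.4 and 20.9 FPKM in mutant libraries. The 4 polycystic liver disease genes, which encode proteins of glycoprotein processing and of the endoplasmic reticulum channel and a Wnt co-receptor, had a median of -0.02, which became 0.0056 and -0.045 on leaving out control replicates 1 and 2 and -0.055 on leaving out mutant replicate 2. Their largest changes were those of Lrp5 (-0.14) and Prkcsh (-0.11).

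Of 7 listed relatives of the polycystins and fibrocystin, Pkd2l2 alone was tested, at 8.89 and 7.34 FPKM in control and 9.88 and 6.66 FPKM in mutant libraries. Its log2 change was 0.01 (SE 0.23) and ranged from -0.25 without mutant replicate 1 to 0.26 without mutant replicate 2, and its locus overlapped that of Fam13b. Pkd1l2, Pkd1l3, Pkd2l1, Pkdrej and Pkhd1l1 were below 1 FPKM in all libraries, with Pkdrej highest at 0.257 FPKM, and Pkd1l1 was not analysed here. Pkd1, Pkd2 and Pkhd1 were thus well above these 5 relatives in every library.

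The 20 other nephronophthisis genes had 12 positive and 8 negative changes, with a median of 0.10 (0.037 without control replicate 1), and 0 passed. Iqcb1, a ciliary protein, was at 9.66 and 9.85 FPKM in control and 21.5 and 15.1 FPKM in mutant libraries, a log2 change of 0.83 (SE 0.19; unadjusted p = 0.010 and adjusted p = 0.39 by limma). Its locus lay within that of Eaf2, so its reads cannot be assigned with certainty. Mapkbp1, a scaffold protein, was at 11.1 and 8.16 FPKM in control and 16.5 and 13.2 FPKM in mutant libraries (log2 change 0.58, SE 0.20; adjusted p = 0.65 by limma). For both genes the groups did not overlap.

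Partners of inversin and Bicc1 gave 4 negative changes out of 4, with a median of -0.12. Anks6, which binds inversin and Bicc1, was at 17.3 and 17.9 FPKM in control and 14.3 and 13.4 FPKM in mutant libraries. Its log2 change was -0.32 (SE 0.10; unadjusted p = 0.031 and adjusted p = 0.60 by limma). In control replicate 1 an unnamed row at 11.9 FPKM lay within the Anks6 locus. Nek8, the kinase of the inversin segment, was at 12.3 and 16.7 FPKM in control and at 12.6 and 11.9 FPKM in mutant libraries, with overlap.

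The transition zone list, to which Tmem67 and Nphp4 belong by function, had 13 positive changes of 16 and a median of 0.15 (0.085 without control replicate 1). Mks1, a gene of the same complex as Tmem67, was at 8.80 and 7.61 FPKM in control and 14.6 and 15.9 FPKM in mutant libraries. Its log2 change of 0.82 (SE 0.13; unadjusted p = 0.0026 and adjusted p = 0.20 by limma) was short of the threshold, although the groups were far apart. Its locus overlapped no other row. Tmem107 had a larger change, 1.14 (SE 0.66), which rested on 1 library: it was at 20.9 and 20.4 FPKM in control and at 91.8 and 23.4 FPKM in mutant libraries.

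Intraflagellar transport carries cargo along the cilium. Its complex B list had 13 positive changes of 14 tested genes and a median of 0.14, and its complex A list had 4 of 6 and a median of 0.13. The largest were Wdr19 (8.29 and 8.40 against 9.56 and 12.7 FPKM) and Wdr35 (10.97 and 11.5 against 13.6 and 12.6 FPKM) in complex A, and Ift57 (13.2 and 15.6 against 16.8 and 19.3 FPKM) and Ift74 (21.8 and 29.9 against 29.7 and 31.2 FPKM) in complex B. Unnamed rows lay within the Wdr19 locus in both control libraries and in mutant replicate 1. Lrrc19, at 1.79 to 3.33 FPKM, lay within the Ift74 locus in every library. Reads of the Wdr19 and Ift74 loci cannot be assigned with certainty. The BBSome, a coat of membrane proteins bound for the cilium, had 5 positive changes of 7 tested genes and a median of 0.19 (0.11 without control replicate 2 and 0.10 without mutant replicate 2). Bbs4 was at 6.50 and 7.78 FPKM in control and 9.34 and 9.98 FPKM in mutant libraries. Bbs5 was at 25.9 FPKM in control replicate 1 and between 9.23 and 10.5 FPKM in the other libraries, so its negative change rested on 1 library. None of these genes passed the threshold, and several sit in more than 1 list. For complex B the median was 0.04 without control replicate 1 and 0.21 without control replicate 2, and for complex A it was 0.20 without control replicate 2.

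Pde4c, a phosphodiesterase that degrades cyclic AMP, was at 18.7 and 16.6 FPKM in control and at 13.4 FPKM in each mutant library, a log2 change of -0.37 (SE 0.11; unadjusted p = 0.025 and adjusted p = 0.55 by limma). Unnamed rows lay within the Pde4c locus in control replicate 2 and in both mutant libraries, with 1 at 49.3 FPKM in mutant replicate 1. Reads of this locus cannot be assigned with certainty. Of the tuberous sclerosis genes, Tsc1 was at 12.7 and 11.6 FPKM in control and 12.2 and 12.1 FPKM in mutant libraries, and Tsc2 is given above with Pkd1.

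**Figure D5:**
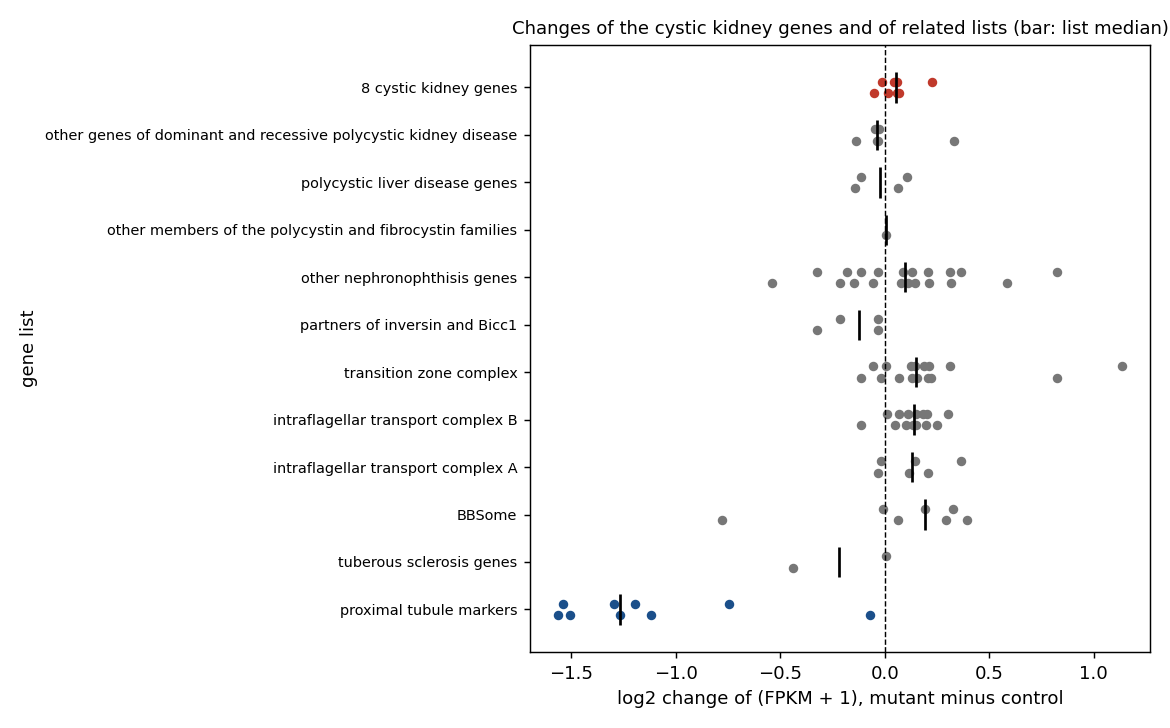
Log2 change of (FPKM + 1), mutant minus control, of each tested gene, for the cystic kidney genes, 10 of the 11 lists and the proximal tubule markers; the short vertical bar is the list's median and the dashed line marks no change. The 8 cystic kidney genes lie between -0.05 and 0.22, while the proximal tubule markers have a median of -1.27.

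In the same libraries the proximal tubule marker list, which includes Hnf4a, had a lower summed level in mutant kidneys. Its summed level was 608 and 510 FPKM in control and 289 and 289 FPKM in mutant libraries. All 9 tested markers had negative changes, with a median of -1.27, and 8 had an unadjusted p under 0.05, although 0 passed the adjusted threshold. That count was 1 with a pseudocount of 0.1, a filter of 5 FPKM, median of ratios scaling or the highest row kept for each name, and Lrp2 had an adjusted p of 0.0504 by limma. The defining markers Lrp2 and Cubn were at 48.5 and 44.9 against 14.6 and 17.0 FPKM and at 13.6 and 16.9 against 4.87 and 4.26 FPKM. Hnf4a itself was at 89.3 and 84.6 against 87.1 and 78.5 FPKM, over the whole gene and not the deleted part, so it does not check the genotypes.

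For other tubule segments, where Pkhd1 and the polycystins are also known to be expressed, the summed levels were closer between groups, although single markers moved both ways. Collecting duct and ureteric bud markers summed to 486 and 457 against 508 and 448 FPKM (Aqp2 at 187 and 158 against 165 and 146 FPKM, and Calb1, also a distal marker, at 48.9 and 59.5 against 117 and 67.0 FPKM). Of 8 tested markers, 3 had positive and 5 negative log2 changes, between -0.15 and 0.70. Calb1 had the highest change, so the sum in mutant replicate 1 leans on this gene. Loop of Henle markers summed to 259 and 266 against 260.0 and 276 FPKM (Slc12a1 at 86.4 and 70.03 against 70.8 and 76.2 FPKM, Umod at 46.8 and 44.1 against 41.0 and 47.7 FPKM). This sum held opposite changes, 3 positive and 3 negative of 6, with log2 changes between -0.57 and 0.39. In this list 2 markers had an unadjusted p under 0.05 by limma, against 7.24% of all tested genes, and 0 passed the adjusted threshold. Distal tubule markers summed to 258 and 293 against 318 and 296 FPKM. Of these 5 markers, 3 had positive and 2 negative log2 changes, between -0.59 and 0.70, the highest again that of Calb1. The sums were 260.4 and 260.1 against 265 and 246 FPKM for podocytes, 194 and 152 against 184 and 175 FPKM for nephron progenitors, 460.4 and 408 against 418 and 349 FPKM for stroma, and 273 and 255 against 258 and 248 FPKM for endothelium. They were 113 and 100.2 against 102 and 120.4 FPKM for leukocytes, 20.3 and 26.8 against 31.8 and 35.1 FPKM for erythroid cells, and 96.3 and 78.0 against 140.2 and 85.5 FPKM for urothelium. The defining markers of the distal tubule and of these 7 other cell types were all above 0 in every library, with Col1a1 highest at 137 FPKM. Adrenal cortex markers summed to at most 1.23 FPKM, with Star listed at 0 in 3 libraries. Multiciliated cell markers summed to 11.4 and 13.1 against 14.1 and 15.3 FPKM, with Foxj1 at 6.12 and 7.44 against 8.87 and 9.23 FPKM and Mcidas at 0.0684 FPKM or less. These sums move beside the cilium lists above, and their part in them was not tested.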

How the data were processed

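Per the labels' protocols, poly(A) RNA of whole kidneys was sequenced from libraries made with a DNA-seq kit that the labels do not describe as stranded. The FPKM values and their interval bounds were computed by the authors and deposited as 1 table per library. Cufflinks 2.1.1, SAMtools 0.1.19, Bowtie 1.0.0 and TopHat2 2.0.11 are named, with build mm9, in the submitters' processing notes. The annotation and all options were not given in the sources used here. Locus bounds differ between the tables for some genes, which can move the FPKM.

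Rows were joined by symbol (22761 names in all 4 tables, 99 left out for a row not marked OK), and the FPKM of rows with the same name were added. Genes at 1 FPKM or more in at least 2 libraries (13287, all 8 members among them) were tested on log2(FPKM + 1) with limma 3.58.1 in R 4.3.3 (with its variance trend and genotype alone in the model, Benjamini-Hochberg adjustment over all tested genes, threshold 0.05). On this scale the changes of weakly expressed genes are understated. The script was tested on simulated data. Older symbols were matched through the RefSeq table (GRCm38.p6).

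The members and the 24 gene lists (11 of pathways, 13 of cell types) were chosen with earlier results of these data known. The text names Hnf4a, the members, genes whose loci overlap them, from each pathway list the genes past the threshold and the 2 with the largest absolute change, the 3 genes nearest to the member with the largest change, and the first 2 markers of each cell list, some as a range. Ttc8 was named after its values were seen, as was Pkdrej. Alternatives changed the pseudocount, filter, scaling, variance model, choice of row and replicate block, and left out each of the 4 libraries. Read totals are not in the tables, so depth is unknown and precision rests on the spread between libraries. Pkd1l1 and 6 list genes of other names were not matched and are not analysed here. Some items that this rule names are not reported here.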

Additional observations from a re-analysis of the deposited data

How the results depend on the processing

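Under all 13 alternatives 0 of the 8 genes passed the threshold, with adjusted p-values between 0.55 and 0.999 by limma and 0 unadjusted p-values under 0.05. Bicc1 and Tmem67 kept a positive change in all 13. Pkhd1 turned negative with median of ratios scaling (-0.0037) and with quantile normalization (-0.0040). With each library left out in turn, the log2 change ranged from -0.20 to 0.31 for Pkd1, -0.081 to 0.055 for Pkd2, -0.21 to 0.24 for Pkhd1, -0.076 to 0.16 for Nphp4, -0.20 to 0.095 for Invs, -0.23 to 0.35 for Glis3, and -0.14 to 0.0025 for Hnf4a. The count over all genes, 21, was 10 without a filter on low values, 33 with a filter of 5 FPKM and 11 without the trend, and ranged from 0 to 21 with each library left out, being 0 without control replicate 1 and without control replicate 2. Where a group kept 1 library, that library was assumed to vary like the other genotype. The cause of these differences was not tested.

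A replicate block left 6 genes past the threshold (3 higher, 3 lower) over all and 0 of the 8. The SE fell to 0.12 for Pkd1 and 0.14 for Glis3, with changes of 0.06 each. It rose from 0.21 to 0.22 for Pkhd1, from 0.14 to 0.16 for Tmem67 and from 0.067 to 0.078 for Bicc1. For Pkd2 (0.086), Nphp4 (0.17) and Invs (0.16) it was near the value without the block. Nothing in the labels says that the numbers pair the libraries, and the deviations of the replicate 1 libraries from their group means correlated at r = 0.15 over 13287 genes, which are not independent replicates. Depth is unknown, so no counting interval limits the low genes, and precision rests on 2 libraries per group.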
